A study of Rattus norvegicus with 17 samples.

Results

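The markers of T cells and cytotoxic lymphocytes followed here were 10 genes, Cd8a, Cd8b, Cd3d, Cd3e, Cd3g, Cd4, Cd2, Cd5, Prf1 and Nkg7. They were selected on earlier results of these data: Cd8a was chosen by its difference between irradiated P1.hMR and irradiated WT rats, and the others because they mark the same lineages. Of the 10, 9 had a row among the 17251 genes of the deposited table, and Cd4 was not analysed here. The question was whether Cd8a moved together with the other T cell genes.

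RNA was sequenced from the meibomian gland (MG), the lipid-secreting gland of the eyelid, of 17 female Sprague-Dawley rats aged between 10 and 12 weeks. The 4 Control WT rats were wild type and not irradiated, and the 5 Control P1.hMR rats carried a transgene for the human mineralocorticoid receptor (MR) and were not irradiated. The 3 UVB WT and 5 UVB P1.hMR rats had the same genotypes and received UVB on the eyelids on 5 days. The transgene is driven by the proximal P1 promoter of the human MR gene, which is active in all tissues that express MR, so a difference between genotypes is not tied to 1 cell type. The study's methods count the irradiated groups in eyes, while each rat had 1 column of values. The study states that where both eyes of an animal were used, they were combined into 1 sample.

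Expression was given as TPM, transcript abundance per transcript length and scaled to the library, which allows levels of different genes to be set side by side. TPM keeps no read counts, so the depth behind each value is unknown, and precision was read from how far rats of a group lay apart. Between 12372 and 12737 genes reached 1 TPM in each rat, and the correlation of log2(TPM + 1) between rats lay between 0.982 and 0.996. As a check of the genotypes, the transgene NR3C2 had 0 TPM in every WT rat, 6.77 to 9.31 TPM in Control P1.hMR and 5.31 to 8.93 TPM in UVB P1.hMR rats. Defining genes of the meibocyte, the lipid-producing cell of the gland, were abundant in every rat. Awat2, a wax ester synthase, lay between 9428.49 and 12062.08 TPM in the control rats and between 6495.49 and 8047.54 TPM in the irradiated rats.

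T cells recognise antigen through a receptor whose signal is carried by the CD3 chains, encoded by Cd3d, Cd3e and Cd3g. CD8, a coreceptor for MHC class I, is built either from alpha and beta chains (Cd8a and Cd8b), as on most cytotoxic T cells, or from alpha chains alone. In the rat the alpha chain is also carried by natural killer (NK) cells and by some macrophages, while the CD3 chains are T cell genes. CD2 is an adhesion receptor of T and NK cells, CD5 a T cell surface receptor that dampens signalling, PRF1 (perforin) the pore-forming protein of cytotoxic granules and NKG7 another protein of those granules.

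Cd8a and Cd2 rose after UVB in both genotypes. For Cd8a, which was chosen and tested through its irradiated rats, this is a description. Cd3e and Cd3g did not pass the limma test in either genotype, and Cd3d, Cd5, Prf1 and Nkg7 did not pass the exact test in P1.hMR rats. Cd8b, below 1 TPM in every rat, rose in the P1.hMR rats by the exact test, whose p is unadjusted. In WT rats the exact test, used for markers too low for limma, cannot give a p under 0.0571 with 3 against 4 rats, so no such marker could pass it there. All 9 measured markers were low in the unexposed gland. Among them only Cd3e, Cd3g and Cd2 reached 1 TPM in any control rat, apart from a single Control WT rat at 1.17 TPM of Nkg7. In bulk tissue, fewer cells of a type and less RNA per cell cannot be told apart.

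**Figure D1:**
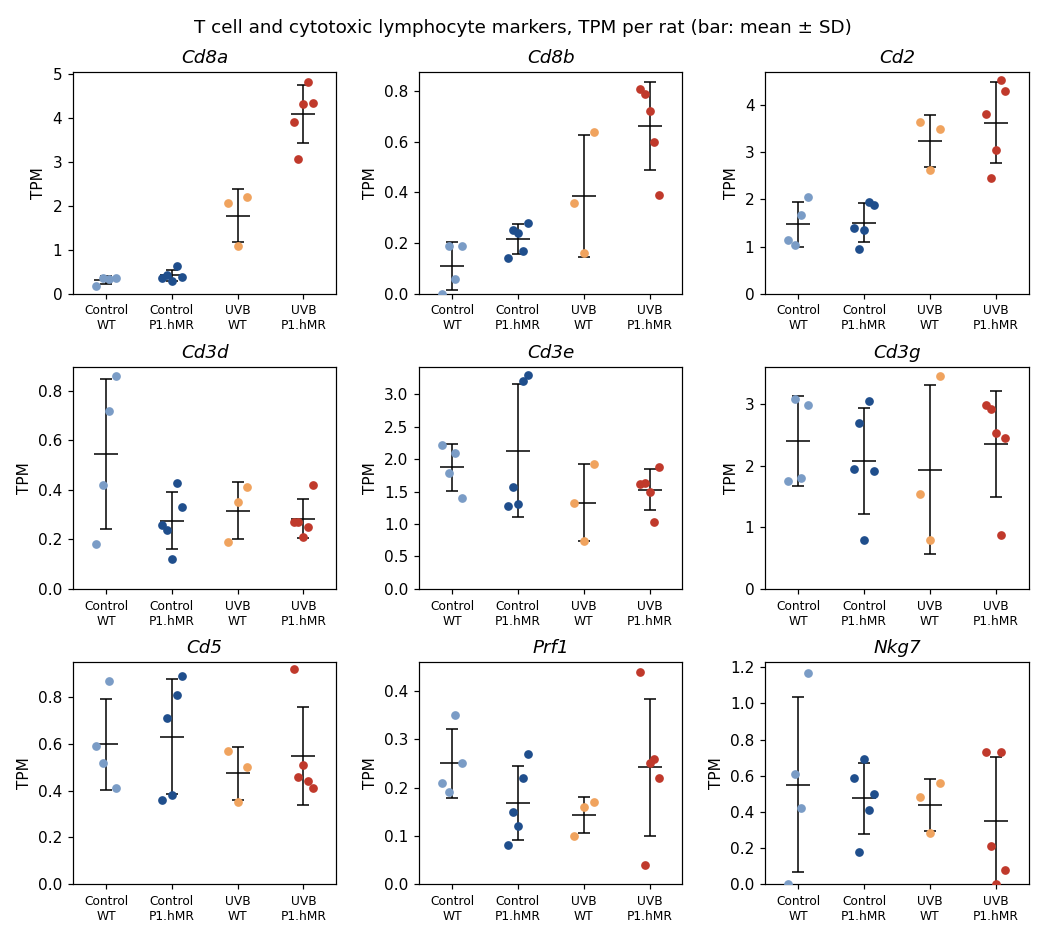
TPM of the 9 measured markers in each rat, with the 4 groups along the horizontal axis and a vertical axis of its own for each gene. Points are rats, the long tick is the group mean and the bar is ± SD. For Cd8a and Cd2 every irradiated rat lies above every control rat, and for Cd3e, Cd3g, Cd3d, Cd5 and Nkg7 the irradiated and control rats overlap.

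Cd8a was near the floor of the table without UVB. The 4 Control WT rats had 0.18, 0.36, 0.33 and 0.36 TPM, and the 5 Control P1.hMR rats 0.35, 0.42, 0.30, 0.64 and 0.39 TPM. The UVB WT rats had 2.06, 1.08 and 2.20 TPM, and the UVB P1.hMR rats 3.92, 3.07, 4.32, 4.82 and 4.34 TPM. The control groups overlapped, every irradiated rat stood above every control rat, and every UVB P1.hMR rat stood above every UVB WT rat.

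In WT rats the mean of Cd8a was 0.308 ± 0.0862 TPM without UVB (SD, n = 4) and 1.78 ± 0.610 TPM with it (SD, n = 3), a ratio of 5.79. On the log2(TPM + 1) scale, which understates changes of low genes, the log2 fold change was 1.07 (standard error 0.15, limma with Benjamini-Hochberg adjustment over 13105 genes, adjusted p = 0.000232). In P1.hMR rats the corresponding means were 0.420 ± 0.131 TPM (SD, n = 5) and 4.09 ± 0.655 TPM (SD, n = 5), a ratio of 9.75. The log2 fold change there was 1.84 (standard error 0.12, limma adjusted p = 1.21e-07). These irradiated rats also took part in the contrast by which Cd8a was chosen. Cd8a entered the tests only because its irradiated rats passed 1 TPM, so among tested genes it was bound to differ.

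Without UVB, the genotypes differed by a log2 fold change of 0.12 in Cd8a (standard error 0.13, 95% interval -0.16 to 0.39, limma adjusted p = 0.998). Under UVB, the contrast that chose the gene, the mean was 2.30 times higher in P1.hMR than in WT rats, a log2 difference of 0.89 (standard error 0.14), given here as a description. The UVB response was larger in P1.hMR than in WT rats by 0.77 (standard error 0.19), which shares those rats and is likewise a description.

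Cd8b, the partner chain, was the lowest marker in Control WT rats. It measured 0, 0.19, 0.06 and 0.19 TPM in Control WT, and 0.14, 0.25, 0.24, 0.17 and 0.28 TPM in Control P1.hMR rats. The UVB WT rats had 0.36, 0.16 and 0.64 TPM, and the UVB P1.hMR rats 0.81, 0.79, 0.72, 0.60 and 0.39 TPM. Within P1.hMR the irradiated and control rats did not overlap, and within WT they did, through the rat UVB WT 2, which also had the lowest Cd8a of its group.

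Cd8b stayed below the filter of at least 1 TPM in at least 3 rats and was compared by an exact permutation test of mean log2(TPM + 1). In P1.hMR rats it rose by 0.45 (exact permutation test, two-sided, n = 5 and 5, unadjusted p = 0.00794, which is the lowest that design allows). In WT rats the difference was 0.31 (two-sided exact permutation test, n = 3 and 4, p = 0.171, where the lowest possible is 0.0571). The mean of Cd8b was 3.52 times the control mean in WT and 3.06 times in P1.hMR rats, against 5.79 and 9.75 times for Cd8a. Whether the response of Cd8b differed between genotypes was not tested. The ratio of mean Cd8a to mean Cd8b TPM was 2.80 in Control WT, 1.94 in Control P1.hMR, 4.60 in UVB WT and 6.18 in UVB P1.hMR rats. The control ratios rest on Cd8b means near the floor, 0.11 TPM in Control WT and 0.216 TPM in Control P1.hMR rats. Whether the ratio differed between groups was not tested.

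Cd2 was the other marker that limma called higher after UVB in both genotypes. It measured 1.13, 1.03, 1.66 and 2.05 TPM in Control WT, and 1.40, 0.94, 1.36, 1.94 and 1.87 TPM in Control P1.hMR rats. The UVB WT rats had 3.63, 2.61 and 3.48 TPM, and the UVB P1.hMR rats 3.80, 2.46, 3.05, 4.52 and 4.29 TPM. Irradiated and control rats did not overlap, while the genotypes overlapped both with and without UVB.

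The mean of Cd2 was 2.21 times higher after UVB in WT rats, or 0.79 as a log2 fold change (standard error 0.19, limma adjusted p = 0.00706). It was 2.41 times higher in P1.hMR rats, or 0.88 as a log2 fold change (standard error 0.15, limma adjusted p = 0.000332). The genotype difference of Cd2 was 0.02 without UVB (standard error 0.16, limma adjusted p = 0.998) and 0.11 under UVB (standard error 0.18), compared with 0.89 for Cd8a under UVB.

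The promoters of Cd8a and Cd2 are shown because these were the genes that limma called higher after UVB in both genotypes. They come from RefSeq on the build GRCr8, not the build of the values, and run from 250 bases before to 50 bases after the start of the gene. Cd8a lies at chr4:104923866-104924165 on the plus strand and Cd2 at chr2:191412610-191412909 on the minus strand. Capitals mark matches to the RUNX motif on either strand.
Cd8a: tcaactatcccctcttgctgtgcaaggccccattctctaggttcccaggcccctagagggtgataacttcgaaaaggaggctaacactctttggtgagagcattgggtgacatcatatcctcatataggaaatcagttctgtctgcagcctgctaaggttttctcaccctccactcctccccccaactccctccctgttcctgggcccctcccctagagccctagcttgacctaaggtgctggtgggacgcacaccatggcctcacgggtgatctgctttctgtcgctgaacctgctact
Cd2: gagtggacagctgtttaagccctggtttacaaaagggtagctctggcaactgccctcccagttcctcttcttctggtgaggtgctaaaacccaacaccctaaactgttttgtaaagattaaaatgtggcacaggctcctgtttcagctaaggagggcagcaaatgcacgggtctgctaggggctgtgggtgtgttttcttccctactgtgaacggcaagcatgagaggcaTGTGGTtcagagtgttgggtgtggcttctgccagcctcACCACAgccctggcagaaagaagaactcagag
The motifs searched on both strands, with the share of 33469 promoters of the same length that hold each, were TGTGGT (RUNX, 17.3%), TGTTCT (steroid receptor half-site, 20.7%), AGATAA (11.6%, for GATA factors), TGAGTCA (AP-1, 4.63%) and CTTTGAA (TCF, 5.4%). Cd2 held 2 RUNX matches and Cd8a no match to any of the 5 motifs. Of the 8 markers with a promoter in the table, Prf1 and Nkg7 held 1 RUNX match each, and the others held none of the 5 motifs.

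Cd3e and Cd3g did not pass the limma test in any comparison. Cd3d did not pass the exact test after UVB in P1.hMR rats or between genotypes without UVB. After UVB in WT rats Cd3d could not pass it. Cd3e measured 2.21, 1.79, 2.09 and 1.40 TPM in Control WT, and 1.28, 1.57, 1.31, 3.20 and 3.29 TPM in Control P1.hMR rats. The UVB WT rats had 1.32, 0.74 and 1.92 TPM, and the UVB P1.hMR rats 1.62, 1.63, 1.49, 1.03 and 1.88 TPM. The groups overlapped, and the highest values of all belonged to a pair of unexposed P1.hMR rats.

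The log2 fold change of Cd3e after UVB was -0.33 in WT rats (95% interval -0.82 to 0.16, limma adjusted p = 0.333) and -0.26 in P1.hMR rats (95% interval -0.66 to 0.15, limma adjusted p = 0.307). The estimates were thus below 0 in both genotypes, with intervals that include 0 and whose upper bounds lie under the estimates for Cd2.

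Cd3g measured 1.75, 3.08, 1.80 and 2.99 TPM in Control WT, and 1.94, 2.69, 0.79, 3.05 and 1.92 TPM in Control P1.hMR rats. The UVB WT rats had 1.54, 0.80 and 3.46 TPM, and the UVB P1.hMR rats 2.99, 2.93, 2.53, 0.88 and 2.45 TPM. The ranges of all 4 groups overlapped. The log2 fold change after UVB was -0.29 in WT rats (95% interval -0.97 to 0.39, limma adjusted p = 0.554) and 0.13 in P1.hMR rats (95% interval -0.44 to 0.69, limma adjusted p = 0.732). The intervals of Cd3g are wide. A value as large as the WT estimate for Cd8a lies outside both of them.

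Cd3d stayed below 1 TPM in every rat, between 0.18 and 0.86 TPM in Control WT and between 0.12 and 0.43 TPM in Control P1.hMR rats. It lay between 0.19 and 0.41 TPM in UVB WT and between 0.21 and 0.42 TPM in UVB P1.hMR rats. The difference in log2(TPM + 1) after UVB was -0.21 in WT rats (two-sided exact permutation test, p = 0.343) and 0.01 in P1.hMR rats (exact permutation test, two-sided, p = 0.857).

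Cd5 lay between 0.35 and 0.92 TPM over all 17 rats. Its difference after UVB was -0.11 in WT (two-sided exact permutation test, p = 0.343) and -0.07 in P1.hMR rats (exact permutation test, two-sided, p = 0.563).

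The cytotoxic granule genes were low throughout. Prf1 measured 0.21, 0.19, 0.35 and 0.25 TPM in Control WT and 0.10, 0.16 and 0.17 TPM in UVB WT rats. These groups did not overlap, and the difference of -0.13 had the smallest p that 3 against 4 rats allow (two-sided exact permutation test, p = 0.0571). In P1.hMR rats Prf1 ran from 0.08 to 0.27 TPM without and from 0.04 to 0.44 TPM with UVB, a difference of 0.08 (exact permutation test, two-sided, p = 0.365).

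Nkg7 ran from 0 to 1.17 TPM in Control WT and from 0.28 to 0.56 TPM in UVB WT rats, a difference of -0.06 (exact permutation test, two-sided, p = 0.857). In P1.hMR rats it ran from 0.18 to 0.69 TPM without and from 0 to 0.73 TPM with UVB, a difference of -0.16 (exact permutation test, two-sided, p = 0.437). Both granule genes therefore lay below the level of Cd8a in every irradiated rat.

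Of the 4 markers that entered limma, 2 were called higher and 0 lower after UVB in each genotype, called meaning an adjusted p under 0.05 with a log2 fold change of 0.5 or more in size. Over all 13105 genes tested, limma called 3.92% higher and 3.98% lower in WT rats, 7.91% in either direction. In P1.hMR rats it called 5.05% higher and 5.71% lower, 10.8% in either direction. Since Cd8a was tested only through its irradiated rats, the count of called markers is a description. Both UVB comparisons were computed in a single model but have no rats in common.

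Of the 4 markers, 0 were called by limma between genotypes without UVB, where 0.00763% of all genes were called and 528 had an unadjusted p under 0.05. The differences without UVB, P1.hMR minus WT on the log2 scale, were 0.07 for Cd3e and -0.17 for Cd3g (limma adjusted p = 0.998 for each). For Cd8b the difference was 0.13 (two-sided exact permutation test, n = 5 and 4, p = 0.111) and for Cd3d -0.26 (same test, exact p = 0.159). The other 3 markers below the filter lay between -0.10 and 0.02, with exact p between 0.159 and 0.921. Under UVB, limma called 0.0229% of all genes between genotypes, 3 in number. One was Cd8a, by which the choice was made, and its call was lost in 12 of 17 fits that each left out 1 rat and under 4 other settings. Another was the transgene NR3C2, and the last was AABR07060145.1, named here after its value was seen, at a log2 difference of -1.28. The interaction of genotype and UVB called 0.0% of genes by limma, with 907 genes at an unadjusted p under 0.05. The 5 markers below the filter were compared in 15 exact tests over 3 comparisons, of which the 5 of UVB in WT rats could not reach 0.05. Among the others 1 had an unadjusted p under 0.05, that of Cd8b in P1.hMR rats.

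**Figure D2:**
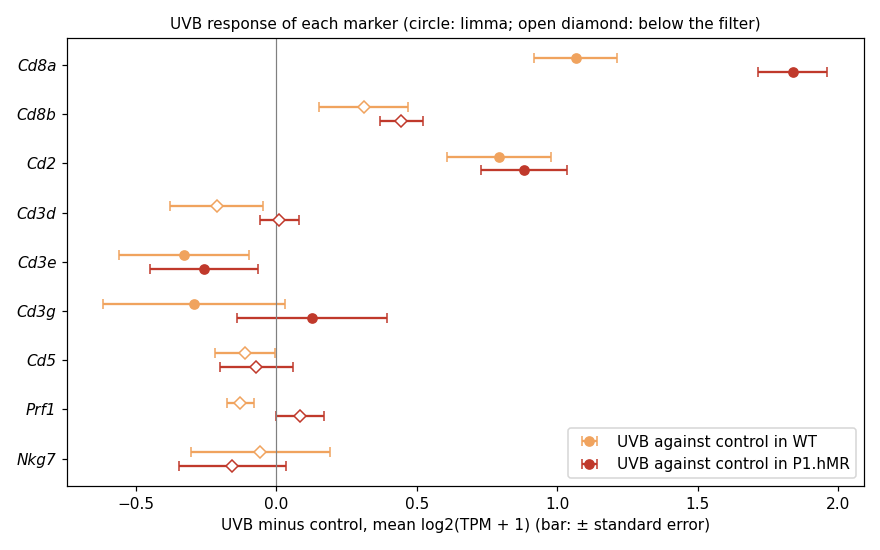
Difference in mean log2(TPM + 1) between irradiated and control rats of each genotype (horizontal axis) for each marker, with bars of ± standard error. Filled circles are markers tested by limma and open diamonds those below the filter. Cd8a reaches 1.07 and 1.84, Cd2 0.79 and 0.88, and the estimates for Cd3e lie at -0.33 and -0.26.

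The order of the markers by mean TPM differed between groups. In Control WT rats Cd3g (2.41 TPM), Cd3e (1.87 TPM) and Cd2 (1.47 TPM) led and Cd8a was in place 7 of 9. In UVB P1.hMR rats Cd8a (4.09 TPM) led, ahead of Cd2 (3.62 TPM), Cd3g (2.36 TPM) and Cd3e (1.53 TPM). The ranges of Cd3g and Cd3e overlapped in every group, as did those of Cd8a and Cd2 in the UVB P1.hMR rats. Within each UVB P1.hMR rat Cd8a stood above Cd2, by 0.014 to 0.39 in log2(TPM + 1). Whether neighbours in the order differed was not tested.

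The level of Cd8a relative to Cd3e was read within each rat. The ratio of Cd8a to Cd3e TPM was 0.174 ± 0.0741 in Control WT (SD, n = 4) and 0.218 ± 0.0630 in Control P1.hMR rats (SD, n = 5). It was 1.39 ± 0.216 in UVB WT (SD, n = 3) and 2.84 ± 1.09 in UVB P1.hMR rats (SD, n = 5). The highest ratio in a control rat was 0.273 and the lowest in an irradiated rat 1.15.

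The change of Cd8a was then set against that of each other marker, as the difference of their log2(TPM + 1) within a rat. Since Cd8a was chosen for its high irradiated values and the values were known when this comparison was added, the differences are a description with no test. Averaged over the genotypes, Cd8a changed by 1.74 more than Cd3e, by 1.53 more than Cd3g and by 1.55 more than Cd3d. The excess was 1.54 over Cd5, 1.47 over Prf1, 1.56 over Nkg7 and 1.07 over Cd8b.

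Against Cd2 the excess was smaller, 0.61 on average. The WT rats gave 0.27 and the P1.hMR rats 0.96. Differences against the scarcest genes are bounded by the added 1 in log2(TPM + 1), which compresses changes below 1 TPM.

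Rat by rat, the markers were compared as deviations from the group means, which leaves out the differences between groups. Over the 17 rats Cd8a correlated with Cd2 (Pearson r = 0.63, permutation p = 0.0124, Spearman rho = 0.623, permutation p = 0.0109, unadjusted over 8 relations). Without the 2 rats farthest from the median of Cd8a, r was 0.554. For the 9 control rats alone, the genotypes were pooled and no group means were taken out. There r was 0.408 (exact permutation p = 0.293, rho = 0.226, exact permutation p = 0.558).

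With Cd3e the correlation was 0.358 (permutation p = 0.241, rho = 0.341, permutation p = 0.257) and with Cd3g 0.338 (permutation p = 0.326, rho = 0.346, permutation p = 0.24). Without the 2 farthest rats, UVB P1.hMR 4 and UVB P1.hMR 5, these were 0.491 and 0.674. UVB P1.hMR 4 had the highest Cd8a and Cd2 of its group (4.82 and 4.52 TPM) and the lowest Cd3e and Cd3g (1.03 and 0.88 TPM). UVB WT 2 was lowest of its group in Cd8a, Cd2, Cd3e, Cd3g, Cd8b and Cd5 alike. Without it the correlation was 0.118 with Cd3e, 0.0507 with Cd3g and -0.161 with Cd8b.

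The correlation with Cd8b was 0.287 (permutation p = 0.51, rho = 0.136, permutation p = 0.731) and without the 2 farthest rats 0.584. For Cd3d, Cd5, Prf1 and Nkg7 r lay between 0.252 and 0.333, with permutation p between 0.225 and 0.293. All 8 correlations were positive, and 1 had an unadjusted p under 0.05. The control rats, again pooled with genotype differences left in, gave r = 0.541 with Cd3g (exact permutation p = 0.111, rho = 0.736, exact permutation p = 0.028). Their Cd8a values span 0.18 to 0.64 TPM.

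**Figure D3:**
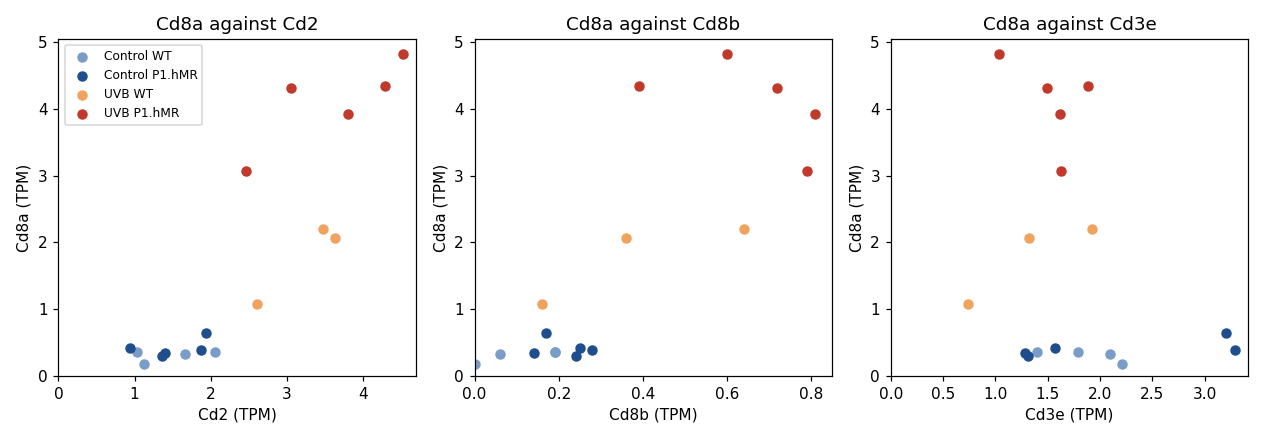
Cd8a in TPM (vertical axis) against Cd2, Cd8b and Cd3e in TPM (horizontal axes), 1 point per rat, coloured by group. A pair of Control WT rats coincides at 0.36 TPM of Cd8a and 0.19 TPM of Cd8b. Irradiated rats lie above control rats in Cd8a at like levels of Cd3e, and to their right in Cd2.

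Of the 13104 other genes tested, those whose deviations from the group means were most like those of Cd8a over the 17 rats were Nmral1 (Pearson r = 0.957), Arhgdib (r = 0.944), Septin5 (r = 0.918), Adgrl3 (r = 0.897) and Nrm (r = 0.885). Cd2 was in place 1072, Cd3e in place 3993 and Cd3g in place 4256. These correlations are a description, and the 17 rats share the 4 group means taken out. Arhgdib, a gene abundant in leukocytes, differed by -0.16 after UVB in WT rats and by -0.18 in P1.hMR rats on the log2 scale.

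Further genes of the T cell receptor pathway were counted from a list of receptor signalling and costimulation genes. Of its 27 genes, 22 had a row and 5 passed the filter, and 0 of these were called in either UVB comparison. In WT rats their median log2 fold change was 0.02 and that of all genes 0.01, and in P1.hMR rats these were 0.03 and -0.02. The list summed to between 12.73 and 20.55 TPM in control and between 13.69 and 17.17 TPM in irradiated rats, overlapping ranges. Cd247, the zeta chain of the receptor complex, had a log2 fold change of -0.36 in WT (standard error 0.18, limma adjusted p = 0.152) and one of -0.37 in P1.hMR rats (standard error 0.15, limma adjusted p = 0.0558). Lck, the kinase that binds the tail of CD8, lay between 0.28 and 0.65 TPM without and between 0.34 and 0.49 TPM with UVB.

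Of 24 cytotoxic granule and NK cell genes, 18 had a row and 4 were tested, of which 1 was called lower and 0 higher in each genotype. Ctsw, a cathepsin of cytotoxic lymphocytes, fell by 0.89 in WT (standard error 0.21, limma adjusted p = 0.00648) and by 0.70 in P1.hMR rats (standard error 0.17, limma adjusted p = 0.00411). Klrd1, the NK receptor chain CD94, did not exceed 0.34 TPM in any rat, and Gzma, granzyme A, did not exceed 0.19 TPM. Klrg1 was at 0 in every Control WT, Control P1.hMR and UVB WT rat. Among the 4 tested, 2 had a log2 fold change above 0 in P1.hMR and 1 in WT rats, with medians of 0.04 and -0.15. Cst7, an inhibitor of granule proteases, had a mean of 2.61 TPM in Control WT, 3.17 TPM in UVB WT, 3.05 TPM in Control P1.hMR and 4.73 TPM in UVB P1.hMR rats, with a log2 fold change of 0.20 in WT and one of 0.49 in P1.hMR rats (limma adjusted p = 0.591 and 0.0597). Klrk1, the activating receptor NKG2D, had a log2 fold change of -0.15 in WT and one of 0.39 in P1.hMR rats (limma adjusted p = 0.704 and 0.143). The list summed to between 6.96 and 13.88 TPM in control and between 6.22 and 12.18 TPM in irradiated rats.

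Receptors that guide T cells or carry cytokine signals gave some calls. Of 18 such genes 10 were tested, and in WT rats 2 were called higher and 0 lower. In P1.hMR rats 2 were likewise called higher and 0 lower. Ccr7, a receptor for lymph node chemokines, rose by 0.50 in WT (limma adjusted p = 0.0302) and by 0.68 in P1.hMR rats (limma adjusted p = 0.000607). Il2rg, the common cytokine receptor chain, rose by 0.56 in WT rats (limma adjusted p = 0.0294) and had a log2 fold change of 0.42 in P1.hMR rats, under the threshold.

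Of 13 ligands that attract T cells or keep them alive, 11 were tested. In WT rats 1 was called higher and 1 lower, and in P1.hMR rats 0 higher and 2 lower. Ccl22, a chemokine made by dendritic cells, fell by 0.88 in WT (limma adjusted p = 0.00168) and by 1.13 in P1.hMR rats (limma adjusted p = 1.3e-05). Ccl27, made by keratinocytes, fell by 0.68 in P1.hMR rats (limma adjusted p = 0.00412). Ccl21 rose by 0.63 in WT rats (limma adjusted p = 0.0266).

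Of the 17 genes listed for MHC class I presentation, the pathway that CD8 reads, 10 had a row and all 10 were tested. In WT rats 0 were called and in P1.hMR rats 3 were called lower. B2m, the light chain of MHC class I, changed by -0.46 on the log2 scale in WT (limma adjusted p = 0.00307, under the fold threshold) and by -0.52 in P1.hMR rats (limma adjusted p = 0.000106). Nlrc5, the transactivator of the pathway, fell by 0.62 and Psmb8, an immunoproteasome subunit, by 0.53 in P1.hMR rats (limma adjusted p = 5.14e-05 and 0.0378).

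Markers of other leukocytes were read beside Cd8a. Of 12 pan-leukocyte genes 11 were tested, with 0 called in WT and 1 called higher in P1.hMR rats, Laptm5 at 0.66 (limma adjusted p = 0.00605). Their medians were 0.20 and 0.21. The list summed to between 83.09 and 148.88 TPM in control and between 91.03 and 153.42 TPM in irradiated rats.

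All 14 macrophage and monocyte markers were tested, and 8 were called higher and 0 lower in each genotype. The median log2 fold change of the list was 0.82 in WT rats and 0.93 in P1.hMR rats. Cd163, a scavenger receptor of macrophages, rose by 2.55 in WT (limma adjusted p = 4.97e-05) and by 2.66 in P1.hMR rats (limma adjusted p = 1.48e-06). Its mean was 0.970 TPM in Control WT, 1.01 TPM in Control P1.hMR, 11.2 TPM in UVB WT and 11.7 TPM in UVB P1.hMR rats. Cd14 and Fcgr1a rose by 0.99 and 1.02 in P1.hMR rats (limma adjusted p = 6.06e-06 and 7.11e-05). The log2 fold change was above 0 for 12 of the 14 markers in WT and for 10 in P1.hMR rats. Cd68 had a mean of 39.8 TPM in Control WT and 30.1 TPM in UVB WT rats. In P1.hMR rats the mean of Cd68 was 37.9 TPM without and 30.7 TPM with UVB. The summed list lay between 195.35 and 530.48 TPM in control and between 238.88 and 468.95 TPM in irradiated rats, so the sums overlapped. Lyz2 was the largest single part of them and ran from 85.72 to 338.64 TPM in Control WT rats. Its mean was 164 TPM in Control WT, 200 TPM in Control P1.hMR, 96.9 TPM in UVB WT and 138 TPM in UVB P1.hMR rats. No macrophage marker was called between genotypes under UVB, where Cd163 differed by 0.12. The part of macrophages in the Cd8a values was not tested.

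Of 8 mast cell markers 6 were tested, with 0 called lower in either genotype, 3 called higher in WT and 5 called higher in P1.hMR rats. Tpsab1, a mast cell tryptase, rose by 1.15 in WT (limma adjusted p = 0.00137) and by 1.56 in P1.hMR rats (limma adjusted p = 5.92e-06). Cpa3, mast cell carboxypeptidase, rose by 0.77 (limma adjusted p = 0.0129) and 1.37 (limma adjusted p = 1.49e-05), and Hdc, the histamine-forming enzyme, by 2.18 (limma adjusted p = 0.00179) and 2.05 (limma adjusted p = 0.000207). The summed list lay between 21.87 and 32.39 TPM in control and between 40.22 and 68.07 TPM in irradiated rats, with no overlap.

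Of 8 Langerhans and dendritic cell markers 5 were tested. Cd207, langerin, fell by 1.11 in WT (limma adjusted p = 0.00217) and by 1.26 in P1.hMR rats (limma adjusted p = 5.63e-05), and was the only marker of the list called lower in either. Flt3, a receptor of dendritic cells, was the 1 marker called higher, in P1.hMR rats, at 0.56 (limma adjusted p = 0.004). The list summed to between 16.05 and 36.78 TPM in control and between 11.28 and 15.75 TPM in irradiated rats, with no overlap. On average most of this sum was Cd207. Its mean was 19.5 TPM in Control WT, 22.1 TPM in Control P1.hMR, 8.24 TPM in UVB WT and 8.52 TPM in UVB P1.hMR rats. The lower sum is therefore mainly a result for Cd207 and not for the list as a whole.

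Of 7 neutrophil markers 1 was tested, Csf3r, the receptor of the granulocyte growth factor. It rose by 0.88 in WT (limma adjusted p = 0.00468) and by 1.22 in P1.hMR rats (limma adjusted p = 2.82e-05). Elane, neutrophil elastase, was at 0 in all Control WT, Control P1.hMR and UVB WT rats. Of 9 B and plasma cell markers 2 were tested and 0 called, and of 6 follicle and lymphoid tissue markers 1 was tested and 0 called. Ms4a1, the B cell marker CD20, was at 0 in every irradiated rat.

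Of 10 meibocyte and gland epithelium markers, all tested, 1 was called higher and 1 lower in each genotype. Elovl3, a fatty acid elongase, rose by 0.55 in WT (limma adjusted p = 0.0077) and by 0.77 in P1.hMR rats (limma adjusted p = 5.48e-05), and Awat2 fell by 0.65 (limma adjusted p = 0.000115) and 0.52 (limma adjusted p = 2.54e-05). Of 7 markers of skeletal muscle, which lies next to the gland in the eyelid, 5 were tested and 0 called, with sums between 1416.49 and 3203.25 TPM over all rats. With the muscle markers as a covariate, 2 of the T cell and cytotoxic markers were still called in each UVB comparison. For Cd8a this is a description. Between genotypes, 0 genes of any of these lists other than Cd8a were called with or without UVB.

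**Figure D4:**
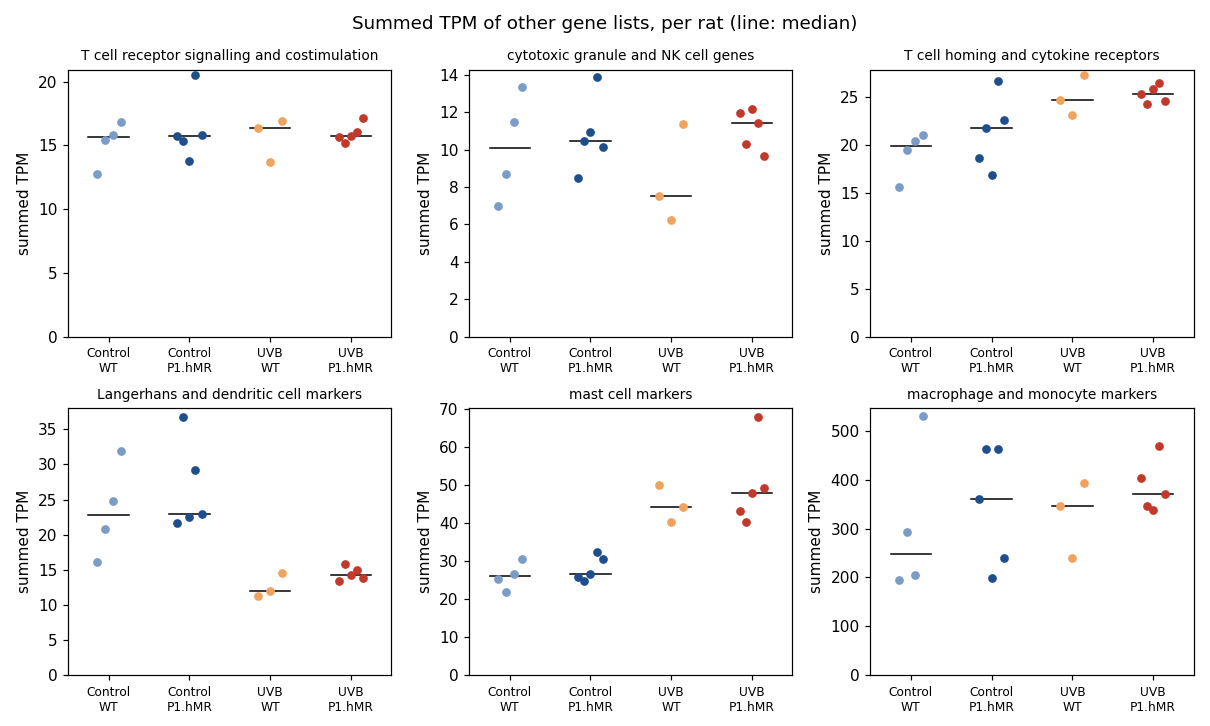
Summed TPM of 6 gene lists in each rat (points), with the 4 groups along the horizontal axis and the group median as a line. The T cell receptor signalling sums overlap between irradiated and control rats at 12.73 to 20.55 TPM. The mast cell sums lie higher in every irradiated than in every control rat. The Langerhans and dendritic cell sums, on average mostly Cd207, lie lower in every irradiated than in every control rat.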

How the data were processed

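The authors checked reads with FastQC, aligned them to the rat genome rn7 with STAR and quantified genes with RSEM. The submitters' processing notes also name Trimmomatic, DRAGEN and Picard. The authors deposited TPM with 2 decimals and decimal commas for 17251 genes and 17 rats. No further normalization is stated, and TPM keeps no depth. Columns were matched to rats by library name and to groups by label.

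TPM values were analysed as log2(TPM + 1). Genes reaching 1 TPM in 3 or more rats, 13105 in number, entered 1 model in limma 3.58.1 (R 4.3.3) with a mean per group and a variance trend. Calls needed a two-sided p under 0.05 after Benjamini-Hochberg adjustment and a log2 fold change of 0.5 or more in size. DESeq2, which the study used, was not applied because TPM values are not counts. Markers below the filter were compared by exact permutation tests, and correlations with 100000 resamples, in Python 3.11.15 with scipy 1.17.1. The limma fit was tested on simulated data.

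The members and lists were chosen with earlier results of these data known, so no p is adjusted over a list alone. Named were all members, up to 3 called genes of each list with the smallest adjusted p, the 5 genes most like Cd8a, and the transgene, although a few genes this names are left unreported. Cd247, Lck, Klrd1, Gzma, Cst7, Klrk1, Cd68 and genes listed at 0 were named after their values were seen. Same-numbered rats were checked for pairing: 4 of 22 pairs of deviations correlated above 0.1. The median r was -0.0051 for same-numbered pairs and 0.008 for pairs with different numbers. The numbers were therefore not taken as pairing the rats. The alternatives were a pseudocount of 0.1, no filter, a mean of at least 5 TPM, quantile and median-of-ratios scaling, the compared groups alone, no variance trend, array weights, a replicate block, other fold thresholds, a skeletal muscle covariate and each rat left out. For the markers below the filter, a pseudocount of 0.1, median-of-ratios scaling and each rat left out were added after the values were seen.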

Additional observations from a re-analysis of the deposited data

Results flagged for a closer look

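Among 27 groups of 4 or 5 rats, 4 had a rat far from the others by Dixon's ratio of gap to range, which chance alone gives in about 1 in 20 groups. Control WT 1 had 0.18 TPM of Cd8a, with the next rat at 0.33 TPM. UVB P1.hMR 5 had 0.42 TPM of Cd3d, with the next at 0.27 TPM. UVB P1.hMR 4 had 0.88 TPM of Cd3g, with the next at 2.45 TPM. UVB P1.hMR 1 had 0.92 TPM of Cd5, with the next at 0.51 TPM.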

How the results depend on the processing

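In the UVB comparisons 2 markers, Cd8a and Cd2, were called in each genotype under every alternative run except a fold threshold of 1 on the log2 scale, which left 1 in each, Cd2 being lost by that threshold. For Cd8a, which was chosen and tested through its irradiated rats, these calls are a description. Each rat left out in turn gave 2 in both. Over these fits Cd8a ran from 0.95 to 1.26 in WT and from 1.79 to 1.92 in P1.hMR rats, and with a pseudocount of 0.1 it reached 2.17 and 3.03. A mean of at least 5 TPM left no marker to test, and the interaction needs all groups, so no smaller fit of it was possible. Under UVB the call of Cd8a between genotypes fell to 0 markers at a fold threshold of 1, with a pseudocount of 0.1, with the replicate block and with only the groups compared in the fit. With each rat left out it was 0 to 1, and it was lost in 12 of 17 fits, with a log2 difference between 0.69 and 1.00. These fits have fewer rats, and otherwise the cause was not tested. With the replicate block, 2 markers stayed called in each UVB comparison and 0 between genotypes without UVB. The numbers were not taken as pairing the rats. The block turned the genotype difference without UVB to -0.016 for Cd3e and -0.030 for Cd2, that of Cd2 under UVB to -0.048 and its interaction to -0.018. Quantile scaling gave -0.020 and array weights -0.0052 for Cd2 without UVB. None of these was called. Signs also turned with single rats left out: Cd3g ran from -0.65 to 0.0085 after UVB in WT and from -0.053 to 0.33 in P1.hMR rats. Without UVB the genotype difference ran from -0.056 to 0.17 for Cd3e, from -0.29 to 0.0084 for Cd3g and from -0.063 to 0.13 for Cd2. Under UVB it ran from -0.050 to 0.32 for Cd3e and from -0.053 to 0.60 for Cd3g. The interaction ran from -0.12 to 0.25 for Cd3e and from -0.023 to 0.19 for Cd2. The correlation of Cd8a with Cd2 was 0.263 in the replicate block. All 8 correlations stayed positive under the other settings, and 7 to 8 with single rats left out. At levels below 1 TPM the 2 deposited decimals and the unknown depth limit what could be detected for Cd8b, Cd3d, Cd5, Prf1 and Nkg7.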
